A study of Mus musculus with 12 samples.

Results

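The AP-1 and immediate early genes Fos, Fosb, Jun, Junb, Jund, Atf3, Egr1, Egr2, Ier2 and Ier3 were followed by RNA-seq in cultured mouse dendritic cells, with and without the β2 integrin chain CD18 and with and without LPS. They were selected by symbol and make up 10 of the 41709 genes in the deposited count tables, and all 10 passed the filter on low counts in every comparison. Bone marrow cells were cultured in medium with GM-CSF for 10 days (BMDCs), and MHCII-positive cells were isolated with magnetic beads before RNA extraction. The 12 libraries form 4 groups of 3: CD18fl/fl untreated, CD18fl/fl with LPS, CD18ΔCD11c untreated and CD18ΔCD11c with LPS, the LPS dose being 100 ng/mL for 24 h per the labels, whereas the paper describes stimulation overnight. CD18ΔCD11c mice (cKO below) express Cre under the CD11c promoter, so deletion takes place only in cells that use this promoter. Cre-negative CD18fl/fl littermates served as controls and carry the same homozygous floxed CD18 allele. Neither the age of the mice nor the number of animals behind a library is given in the sources used here, so p-values measure the spread between libraries.

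Immediate early genes are transcribed within minutes of a stimulus from factors that are already present in the cell, mainly through MAP kinases, serum response factor with its ternary complex partners, and CREB, and their transcripts are short-lived. Fos and Jun proteins form the dimeric transcription factor AP-1 through their basic leucine zippers (bZIP). Atf3 is a bZIP protein that can restrain Toll-like receptor responses, Egr1 and Egr2 are zinc finger factors, and Ier2 and Ier3 encode small proteins induced by growth factors and stress. In dendritic cells and macrophages, LPS triggers a first burst of these genes through MAP kinases, and 24 h of LPS lies far beyond this burst.

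Each library held between 29689149 and 34037178 total gene reads. Itgb2, which encodes the targeted CD18 chain, was at 382, 420 and 379 CPM (reads relative to a library size scaled by TMM over the 12 libraries) in untreated CD18fl/fl and at 120, 163 and 189 CPM in untreated cKO BMDCs, and at 167, 171 and 267 against 114, 89.7 and 119 CPM after LPS, so transcript of the targeted gene remained in all cKO libraries. The libraries numbered 3 stood apart from those numbered 1 and 2 in every group, along the axes that held 37.1% and 25.2% of the variance. Deviations from the group means were alike in same-numbered libraries (r between 0.265 and 0.716 across genes). Values with the replicate number as a block are therefore given wherever they changed a call. No r was computed between libraries of different number, so r does not show that those numbered 1 and 2 pair by number. Both cKO libraries numbered 3 held at most 2 reads of each of the Y-linked genes Ddx3y, Eif2s3y, Kdm5d and Uty, whereas the other 10 libraries held at least 137 reads of each. Within replicate 3, genotype therefore cannot be told apart from the presence of Y-linked transcripts.

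The 10 genes are spread over 8 chromosomes (GRCm39, positions as deposited). Fos lies on the plus strand at chr12:85520664-85524047 and Fosb on the minus strand at chr7:19036621-19043976. Jun, at chr4:94937271-94940459, and Jund, at chr8:71151599-71153265, have a single exon. Junb, at chr8:85701113-85705347, overlaps the abundant gene Prdx2 on the opposite strand, which held 11864 to 44940 reads per library, and since the counting is not stated to use strand, its level is uncertain. The overlap of Jun with the antisense transcript Junos involved 15 to 176 reads per library. Atf3 was found at chr1:190902493-190950236, Egr2 at chr10:67371305-67378018, Ier2 at chr8:85387960-85389483 and Ier3 at chr17:36132576-36133815. Egr1 has the identifier ENSMUSG00000038418.

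Promoter windows of 300 bases (RefSeq, GRCm38.p6, from 250 bases before to 50 bases after a start) were given for 8 of the 10 genes, all but Egr1 and Ier2. Those of 4 genes are shown because Fos and Fosb had lower, and Junb and Atf3 higher, mean levels in LPS-treated libraries, a difference that for Junb passed the test in cKO BMDCs with the replicate block alone. Capitals mark matches, on either strand, to the half-site TGACG of the cAMP response element, to the TATA box TATAAA or to an NF-κB site, and the windows lie at chr12:85473640-85473939 (plus strand), chr7:19309996-19310295, chr8:84978699-84978998 and chr1:191183284-191183583 (minus strand), respectively.
Fos: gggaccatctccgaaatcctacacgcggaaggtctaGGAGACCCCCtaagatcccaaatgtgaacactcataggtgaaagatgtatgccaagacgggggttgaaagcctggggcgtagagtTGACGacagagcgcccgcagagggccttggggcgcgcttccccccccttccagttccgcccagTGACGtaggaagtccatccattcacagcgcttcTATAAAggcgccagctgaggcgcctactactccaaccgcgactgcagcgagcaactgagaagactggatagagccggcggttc
Fosb: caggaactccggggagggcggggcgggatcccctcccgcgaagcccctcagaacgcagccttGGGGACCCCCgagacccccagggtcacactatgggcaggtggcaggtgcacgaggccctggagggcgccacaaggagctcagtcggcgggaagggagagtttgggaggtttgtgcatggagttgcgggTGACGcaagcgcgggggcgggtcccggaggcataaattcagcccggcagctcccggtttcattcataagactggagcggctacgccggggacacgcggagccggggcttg
Junb: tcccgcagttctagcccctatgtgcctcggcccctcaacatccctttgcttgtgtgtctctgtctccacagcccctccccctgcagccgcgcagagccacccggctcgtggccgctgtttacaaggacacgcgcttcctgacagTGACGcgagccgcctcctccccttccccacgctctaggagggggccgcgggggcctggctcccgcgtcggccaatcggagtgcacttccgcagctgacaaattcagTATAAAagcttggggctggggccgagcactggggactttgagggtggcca
Atf3: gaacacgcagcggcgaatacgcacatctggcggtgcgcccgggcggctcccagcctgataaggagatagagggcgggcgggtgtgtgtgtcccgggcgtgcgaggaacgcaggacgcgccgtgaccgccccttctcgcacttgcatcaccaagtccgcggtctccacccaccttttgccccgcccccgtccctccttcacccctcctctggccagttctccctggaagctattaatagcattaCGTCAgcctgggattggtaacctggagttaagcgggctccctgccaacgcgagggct
The half-site was found in 5 of 8 genes with a window (Fos, Fosb, Junb, Atf3 and Egr2) and in 20.8% of all 32851 windows. In Fos, it occurred at positions -129 to -125 and -66 to -62 relative to the first transcribed base (0), and the TATA box at -33 to -28. In Junb, the letters TATAAA lay at 0 to 5, on the annotated start rather than before it. The full element TGACGTCA and the AP-1 site TGACTCA were in 0 of 8 genes and in 1.79% and 5.2% of all windows. Within these windows, Jun alone held the variant TGACATCA (3.62% of all windows), and Egr2 alone a CArG box, the element bound by serum response factor (1.63%). Egr2 had 5 windows, in any of which a match counted, and each other gene had 1, whereas the shares are per window. Bases more than 250 before a start were not searched. NF-κB sites were found in Fos, Fosb and Ier3 (4.51% of all windows). These matches describe the letters of the windows only.

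Fos, Fosb, Egr1 and Ier2 were lower in every LPS library than in every untreated library of the same genotype, whereas Atf3 was higher.

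**Figure D1:**
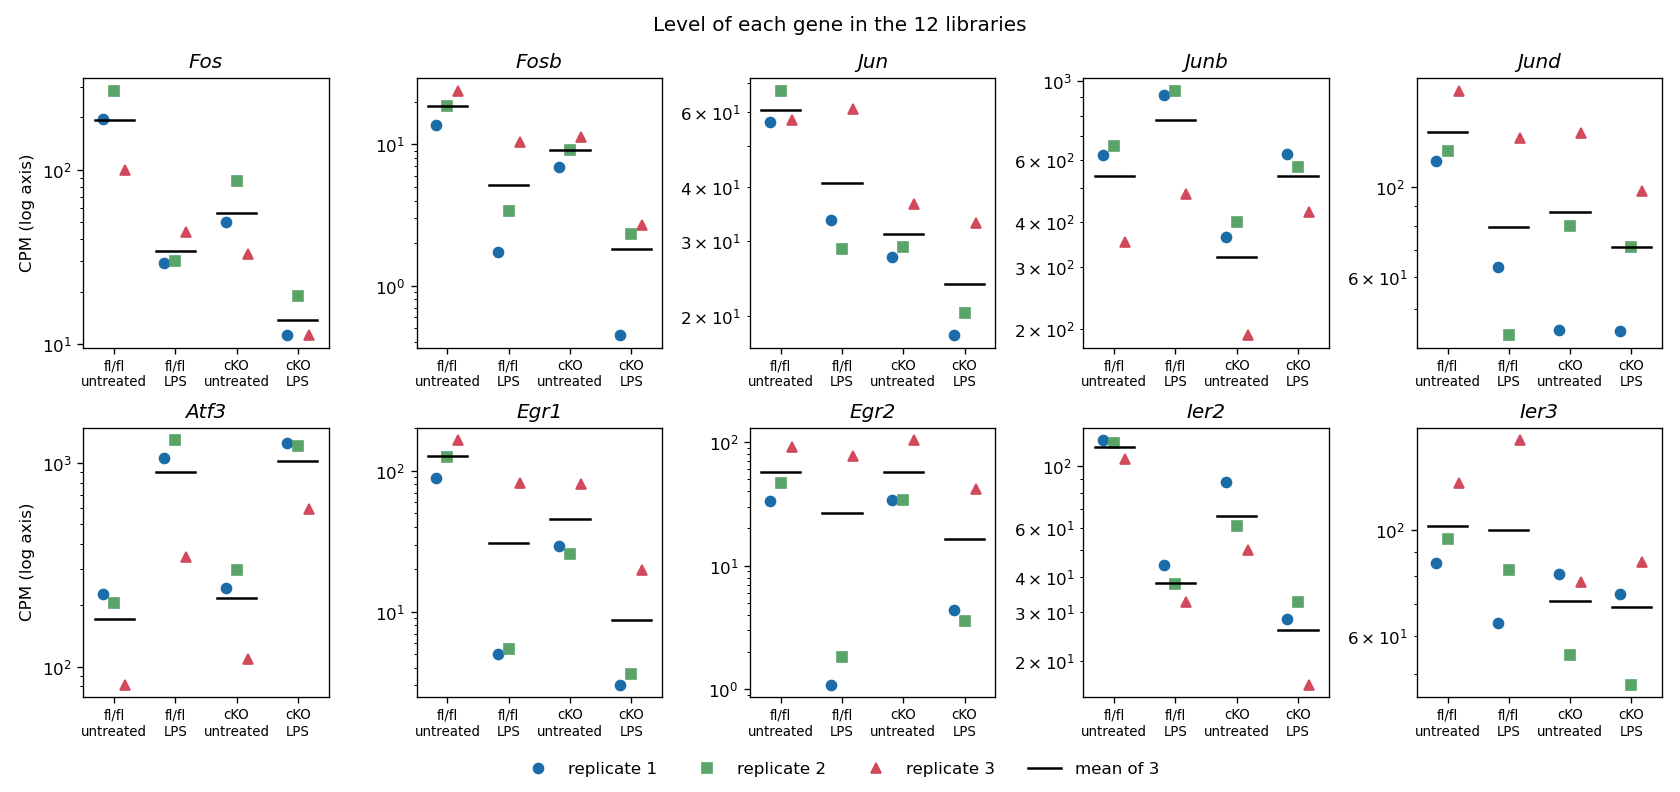
CPM (log axis) of the 10 genes in the 4 groups, with 1 point per library, the replicate number as colour and shape, and the mean of 3 libraries as a bar. Fos in CD18fl/fl BMDCs lies between 100 and 285 CPM untreated and between 29.3 and 44.0 CPM after LPS, while Egr1 and Egr2 of the LPS libraries numbered 3 lie far above the other LPS libraries.

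The first comparison asked how LPS changed these genes in CD18fl/fl BMDCs. After LPS, Fos and Ier2 fell in the test without block, 2 of 10 genes called lower and 0 higher (edgeR, adjusted p under 0.05), whereas 1.83% and 2.06% of all 12744 genes tested were called lower and higher. At an unadjusted p under 0.05, 3 were lower and 1 higher, next to 1457 lower and 1577 higher of all genes. DESeq2 called Atf3 higher and Fos, Fosb and Ier2 lower. Of the 18927 genes it fitted, it called 825 lower and 969 higher. With the replicate block, 4 were called lower (Fos, Fosb, Egr1 and Ier2) and 1 higher (Atf3), against 6.43% and 6.33% of all genes. The groups did not overlap for 4 lower genes and 1 higher gene, where this held for 15.9% and 13.6% of all genes. The median log2 fold change of the 10 genes was -0.93, and that of all genes -0.02. In bulk RNA, fewer expressing cells and less transcript per cell cannot be told apart, here and in the comparisons that follow.

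Fos, the prototype AP-1 subunit, had 195, 285 and 100 CPM in the untreated and 29.3, 30.0 and 44.0 CPM in the LPS-treated CD18fl/fl libraries. The untreated libraries were all higher, by 5.62-fold on average (log2 fold change -2.49, standard error 0.43, edgeR adjusted p = 0.0336). Fosb, its close relative with a much lower level, had 13.8, 18.6 and 24.0 CPM untreated and 1.73, 3.38 and 10.4 CPM after LPS. Its groups did not overlap, and in edgeR over all 3 replicates the change passed the threshold with the block (-2.19, standard error 0.40, adjusted p = 0.0231) but not without it (0.150). DESeq2 without block also called it (adjusted p = 0.0333), and in replicates 1 and 2 alone edgeR gave -2.67 (adjusted p = 6.05e-05). The blocked call was lost without replicate 2 of either group (adjusted p = 0.0518 and 0.0598). In both Fos family genes, the library of replicate 3 was the highest of the LPS group.

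Of the Jun family, Jun itself, the usual partner of Fos, had 56.8, 67.3 and 57.6 CPM untreated and 33.5, 28.6 and 60.8 CPM after LPS. Its groups overlapped through replicate 3 (log2 fold change -0.56, edgeR adjusted p = 0.344). Jund, the constitutively expressed member, had 116, 123 and 173 CPM against 63.6, 43.1 and 132 CPM, with the same overlap (-0.78, adjusted p = 0.326). Junb had 618, 655 and 352 CPM untreated and 914, 941 and 482 CPM after LPS, and was higher within each same-numbered pair by 0.45 to 0.56 on the log2 scale (adjusted p = 0.431 without and 0.129 with the block). In replicates 1 and 2 alone, all 3 Jun genes passed, with Jun at -1.0, Jund at -1.16 and Junb at 0.54 (edgeR adjusted p = 0.000676, 0.000494 and 0.0203). That setting called 3000 higher and 3140 lower of all 12924 genes tested, so passing there was common. Of the 5 Fos and Jun genes among the 10, Junb was thus the only one with a positive log2 fold change.

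Atf3 moved opposite to Fos. Its values were 227, 206 and 81.5 CPM untreated and 1061, 1302 and 346 CPM after LPS, and each LPS library exceeded all untreated libraries. The mean was 5.26 times higher (log2 fold change 2.40, standard error 0.60, edgeR adjusted p = 0.0765), and the change passed the threshold with the block (2.33, standard error 0.23, adjusted p = 0.00569), in DESeq2 (0.000616) and in replicates 1 and 2 alone (2.44, edgeR adjusted p = 1.82e-06).

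The Egr genes were split by replicate. Egr1 had 88.8, 125 and 166 CPM untreated but 4.98, 5.43 and 81.9 CPM after LPS. Egr2, which also marks alternatively activated macrophages, had 33.2, 46.3 and 90.9 CPM untreated and 1.09, 1.82 and 76.6 CPM after LPS. In replicates 1 and 2, Egr1 differed by -4.37 and Egr2 by -4.78 on the log2 scale (edgeR adjusted p = 1.15e-07 and 3.63e-07), whereas in replicate 3 the LPS library differed from the untreated one by -1.02 and -0.25. Without the block, neither passed over all 3 replicates (adjusted p = 0.297 and 0.680), and with the block Egr1 did (-3.30, standard error 0.78, adjusted p = 0.0445) and Egr2 did not (0.0912). The blocked call of Egr1 was lost without replicate 2 of either group (adjusted p = 0.0917 and 0.0951). Without the library CD18fl/fl LPS replicate 3, the log2 fold changes were -4.60 and -5.28 (adjusted p = 0.00522 and 0.00639), and 7 of the 10 genes were called lower and 1 higher. The share of all genes called in that fit is not given here, so this count is not a result particular to the 10 genes.

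Ier2 had 124, 121 and 106 CPM untreated and 44.2, 37.6 and 32.5 CPM after LPS (log2 fold change -1.62, standard error 0.23, edgeR adjusted p = 0.0195). Its 3 pairs differed by -1.49, -1.69 and -1.71. Ier3, which protects cells from apoptosis, had 85.4, 95.4 and 125 CPM against 63.8, 82.3 and 154 CPM, with overlapping groups (-0.02, adjusted p = 0.978). The calls of Fos and Ier2 were lost without any of the libraries of replicates 1 and 2, with log2 fold changes between -2.80 and -2.10 and between -1.74 and -1.52 over all libraries left out and adjusted p of up to 0.153 and 0.122, but remained without either library of replicate 3.

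In cKO BMDCs, the same comparison showed Fos lower and Atf3 higher after LPS. Without block, 1 of 10 genes was called lower and 1 higher, against 1.76% and 2.23% of all 12687 genes tested. With the block, 5 were called lower (Fos, Fosb, Egr1, Egr2 and Ier2) and 2 higher (Atf3 and Junb), against 9.93% and 10.2% of all genes. DESeq2 without block called Fos, Fosb, Egr1 and Ier2 lower and Atf3 higher. It gave no adjusted p for Egr2. Of the 19186 genes it fitted, it called 756 lower and 776 higher. In replicates 1 and 2 alone, Fos, Egr1, Egr2 and Ier2 were called lower (-2.29, -3.15, -3.20 and -1.39, edgeR adjusted p = 0.0121, 0.00312, 0.00310 and 0.0161) and Atf3 higher, whereas Fosb and Junb did not pass (adjusted p = 0.0592 and 0.104). That setting called 1028 lower and 1021 higher of all 12872 genes tested. The groups did not overlap for 4 lower and 2 higher genes (13.4% and 14.8% of all genes). The median log2 fold change was -0.92 for the 10 genes and -0.01 for all genes.

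Fos had 50.3, 85.8 and 32.9 CPM in untreated and 11.3, 18.8 and 11.2 CPM in LPS-treated cKO libraries (log2 fold change -2.09, standard error 0.42, edgeR adjusted p = 0.0441). Every LPS library was below every untreated one. Fosb had 6.87, 9.20 and 11.3 CPM against 0.446, 2.34 and 2.69 CPM, the lowest value resting on 11 reads (-2.61, standard error 0.48, adjusted p = 0.0118 with the block, 0.100 without). Atf3 had 244, 298 and 109 CPM untreated and 1257, 1211 and 594 CPM after LPS, without overlap (2.17, standard error 0.45, adjusted p = 0.0460). All 3 pairs of Atf3 differed by at least 2.02 on the log2 scale.

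Junb had 364, 402 and 192 CPM untreated and 623, 573 and 427 CPM after LPS, and passed only with the block (0.76, standard error 0.20, edgeR adjusted p = 0.0417, against 0.269 without), a call that was lost without replicate 1 or 2 of either group (adjusted p up to 0.179). Jun, at 27.4, 29.0 and 36.6 CPM against 18, 20.3 and 33.0 CPM, and Jund, at 44.4, 80.0 and 136 CPM against 44.2, 71.2 and 98.0 CPM, overlapped between the groups and passed with neither fit. Within the Jun family, LPS was hence accompanied by more reads counted for Junb relative to Jun in each same-numbered pair of both genotypes. Reads of the overlapping gene Prdx2 may be among those counted for Junb.

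Egr1 had 29.5, 25.5 and 80.5 CPM untreated and 3.04, 3.64 and 19.7 CPM after LPS, with pair differences of -3.25, -2.79 and -2.03 (with the block -2.73, standard error 0.29, edgeR adjusted p = 0.00247, against 0.167 without). Egr2 had 33.7, 34.0 and 104 CPM against 4.38, 3.55 and 41.3 CPM (with the block -2.54, standard error 0.41, adjusted p = 0.00784, against 0.359 without). Ier2 had 87.5, 61.0 and 49.9 CPM against 28.2, 32.5 and 16.4 CPM (with the block -1.43, standard error 0.21, adjusted p = 0.00554, against 0.0602 without). Ier3 overlapped, with 80.7, 54.7 and 77.9 CPM against 73.3, 47.5 and 85.8 CPM.

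Without block, the call of Fos was lost without any library but cKO untreated replicate 3 (edgeR adjusted p up to 0.160, log2 fold change -2.36 to -1.64), and that of Atf3 without any but cKO LPS replicate 3 (adjusted p up to 0.173, log2 fold change 1.85 to 2.48). Without cKO LPS replicate 3, Egr1 and Egr2 were called lower (-3.85 and -3.95, adjusted p = 0.0244 and 0.0249). With the block, the calls of Fos, Fosb, Egr1 and Atf3 remained whichever library was left out.

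**Figure D2:**
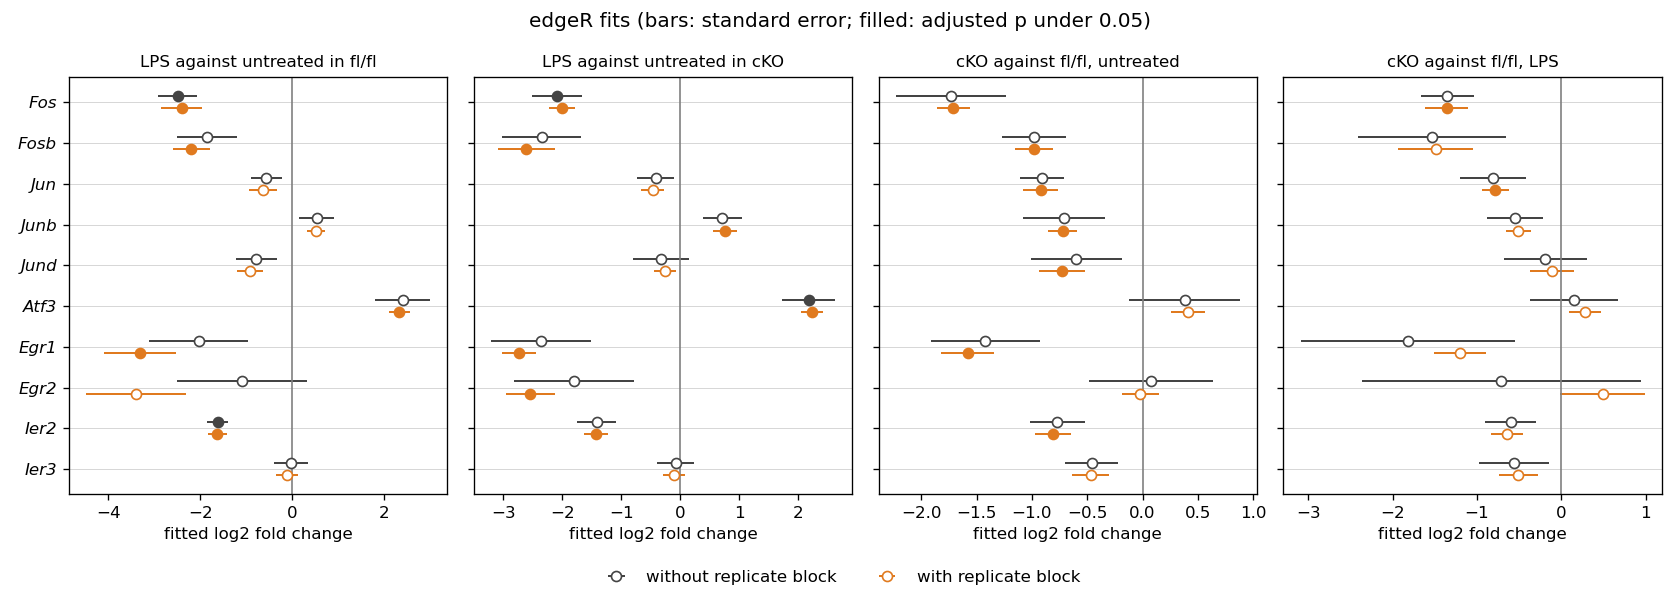
Fitted log2 fold change of each gene (x axis) in the 4 comparisons, without (grey) and with (orange) the replicate block, with bars giving the standard error and filled points an edgeR adjusted p under 0.05. With the block, 7 genes are filled to the left of 0 for cKO against CD18fl/fl in untreated BMDCs, and Atf3 is filled to the right of 0 for LPS in both genotypes.

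The next comparison asked whether these genes depended on CD18 in untreated BMDCs. With the replicate block, 7 of the 10 genes were lower in cKO than in CD18fl/fl BMDCs, Fos and Egr1 by the largest log2 fold changes of the 10, whereas no gene of the set passed in edgeR over all 3 replicates without it. Without block, 0 of 10 genes passed the threshold, as did 0.0% of all 12876 genes tested. At an unadjusted p under 0.05, 5 genes were lower (Fos, Fosb, Jun, Egr1 and Ier2) and 0 higher, next to 764 lower and 1395 higher of all genes. With the block, 7 were called lower (Fos, Fosb, Jun, Junb, Jund, Egr1 and Ier2) and 0 higher, against 8.16% and 12.1% of all genes. DESeq2 without block called Fos and Jun lower, that is 2 of 10 where it called 0.527% of all genes with an adjusted p lower. The groups did not overlap for 6 lower and 0 higher genes (13.1% and 11.7% of all genes). All 3 same-numbered pairs were lower for 8 of 10 genes, which held for 33.9% of all genes.

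Fos had 195, 285 and 100 CPM in untreated CD18fl/fl and 50.3, 85.8 and 32.9 CPM in untreated cKO libraries, without overlap. The ratio of the means was 3.44, and the same-numbered pairs differed by -1.96, -1.73 and -1.61 (log2 fold change with the block -1.71, standard error 0.15, edgeR adjusted p = 0.00298, against 0.180 without). Fosb had 13.8, 18.6 and 24.0 CPM against 6.87, 9.20 and 11.3 CPM, and its pairs differed by -1.0, -1.01 and -1.09 (with the block adjusted p = 0.00959, against 0.188 without). The genotype difference of both Fos family genes was thus almost the same in each replicate, replicate 3 included.

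Jun had 56.8, 67.3 and 57.6 CPM in CD18fl/fl and 27.4, 29.0 and 36.6 CPM in cKO libraries (with the block -0.92, standard error 0.16, edgeR adjusted p = 0.0106, against 0.119 without). Junb had 618, 655 and 352 CPM against 364, 402 and 192 CPM, with pairs at -0.76, -0.71 and -0.87 and groups that overlapped through replicate 3 (with the block -0.72, standard error 0.13, adjusted p = 0.0112, against 0.378 without). Jund had 116, 123 and 173 CPM against 44.4, 80.0 and 136 CPM, with pairs at -1.38, -0.62 and -0.35 and groups that overlapped. It lay just past the threshold with the block (-0.73, standard error 0.21, edgeR adjusted p = 0.0487, against 0.496 without).

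Egr1 had 88.8, 125 and 166 CPM in CD18fl/fl and 29.5, 25.5 and 80.5 CPM in cKO libraries, without overlap (with the block -1.58, standard error 0.24, edgeR adjusted p = 0.00608, against 0.228 without). Egr2, at 33.2, 46.3 and 90.9 CPM against 33.7, 34.0 and 104 CPM, had almost equal group means of 56.8 and 57.3 CPM, and both Egr genes were highest in replicate 3. Ier2 had 124, 121 and 106 CPM against 87.5, 61.0 and 49.9 CPM (with the block -0.81, standard error 0.16, adjusted p = 0.0137, against 0.213 without). Ier3 had 85.4, 95.4 and 125 CPM against 80.7, 54.7 and 77.9 CPM, and passed only with an offset for gene length added to the block (-1.01, adjusted p = 0.0148, against 0.0895 with the block alone).

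Atf3 did not share this pattern. It had 227, 206 and 81.5 CPM in CD18fl/fl and 244, 298 and 109 CPM in cKO libraries, a difference of 0.38 on the log2 scale (standard error 0.50, edgeR adjusted p = 0.746), which became -0.02 when libraries were scaled to their size alone. That scaling shifted the median of all genes to -0.44, and under it Fos was at -2.14 and Egr1 at -1.78. In replicates 1 and 2 alone, Fos, Jun and Egr1 were called lower (-1.76, -1.08 and -1.91, adjusted p = 0.0249, 0.0223 and 0.0207), and 3 of 10 genes in all. Of all 13068 genes tested in that setting, 349 were called lower and 1034 higher. With the block, the calls of Fos and Egr1 remained whichever library was left out. The other 5 were lost without at least 1 library (between 2 and 7 genes were called), always including CD18fl/fl untreated replicate 2 and cKO untreated replicate 2.

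**Figure D3:**
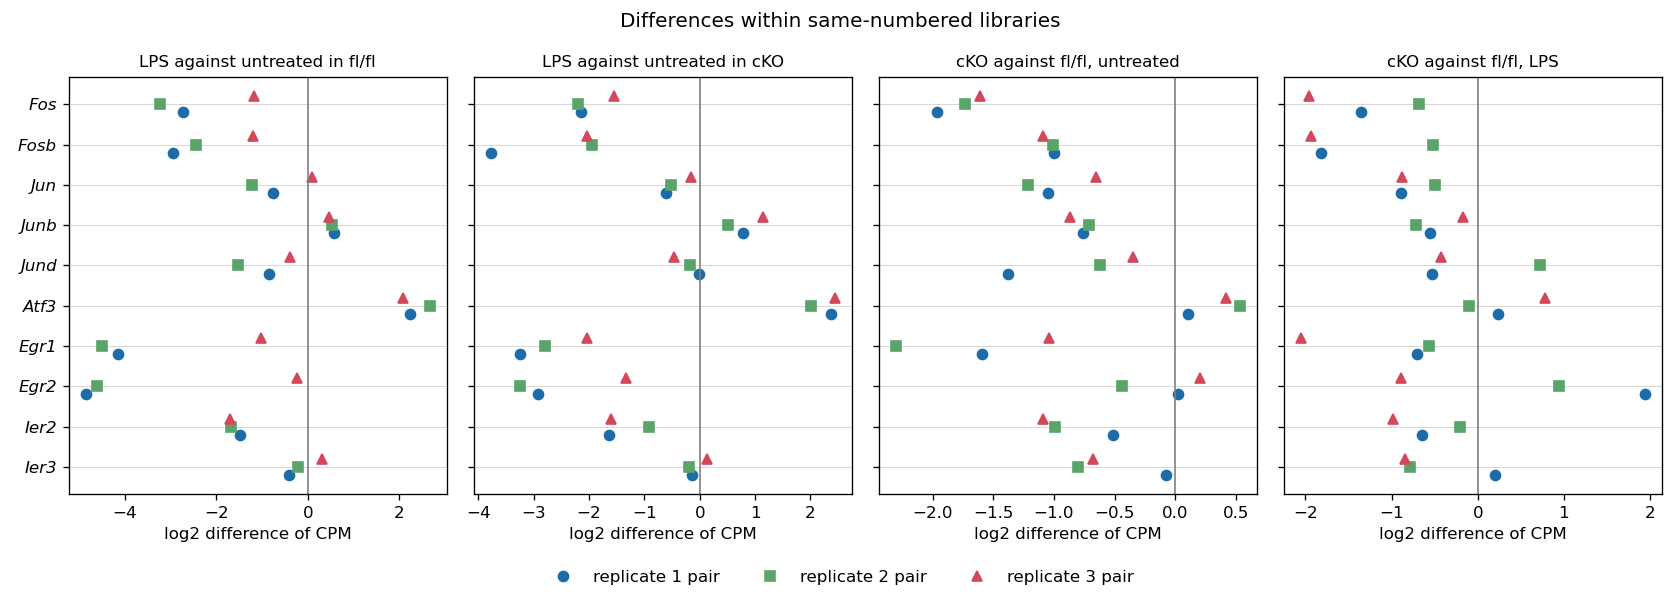
Log2 difference of CPM (x axis) within each pair of same-numbered libraries for the 10 genes in the 4 comparisons, each panel with its own range. Fos differs by -1.96, -1.73 and -1.61 between the genotypes in untreated BMDCs, whereas Egr2 after LPS has pairs on both sides of 0.

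The last pairwise comparison set the genotypes against each other after LPS. Fos and Jun were lower in cKO BMDCs with the replicate block, and the other 8 genes did not pass. Without block, 0 of 10 genes were called, as were 0.0% of all 12441 genes. At an unadjusted p under 0.05, only Fos was lower, next to 442 lower and 770 higher of all genes. With the block, 2 of 10 genes were called lower and 0 higher, against 3.16% and 6.98% of all genes. DESeq2 without block called 0 of 10 genes, of which Egr1 and Egr2 had no adjusted p. Of the 11534 genes with an adjusted p, it called 0.078% lower. The groups did not overlap for 1 lower and 0 higher genes (8.09% and 9.51% of all genes), and all 3 pairs were lower for 6 of 10 genes (26.1% of all genes).

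Fos had 29.3, 30.0 and 44.0 CPM in LPS-treated CD18fl/fl and 11.3, 18.8 and 11.2 CPM in LPS-treated cKO libraries (with the block -1.36, standard error 0.25, edgeR adjusted p = 0.0210, against 0.325 without). Fos was thus the only gene of the set whose groups were free of overlap in all 4 comparisons, which share their libraries. Itgb2, outside the set, was free of overlap in all 4 too. The share of all genes with this trait is not given here, so it is not a result particular to Fos. Jun had 33.5, 28.6 and 60.8 CPM against 18, 20.3 and 33.0 CPM (with the block -0.78, standard error 0.16, adjusted p = 0.0280, against 0.572 without). The call of Fos was lost without cKO LPS replicate 1 or 2, and that of Jun without any library but CD18fl/fl LPS replicate 3 (adjusted p up to 0.118 and 0.186). In replicates 1 and 2 alone, 0 of 10 genes were called, with Fos at -1.01 (adjusted p = 0.0712).

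The remaining genes had wide or mixed pairs after LPS. Egr1 had pairs at -0.70, -0.57 and -2.05 (with the block -1.20, standard error 0.31, edgeR adjusted p = 0.0521), and without CD18fl/fl LPS replicate 3 its log2 fold change without block turned from -1.82 to 0.75. Egr2 had pairs at 1.94, 0.94 and -0.89, and Jund at -0.53, 0.72 and -0.43. Fosb had 1.73, 3.38 and 10.4 CPM against 0.446, 2.34 and 2.69 CPM, lower within each pair (with the block adjusted p = 0.0749). Atf3, at 1061, 1302 and 346 CPM against 1257, 1211 and 594 CPM, overlapped between the genotypes (log2 fold change 0.15, standard error 0.52, adjusted p = 0.950), and its sign turned with library size scaling (-0.07) and without CD18fl/fl LPS replicate 3 (-0.27) or cKO LPS replicate 1 (-0.03).

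Whether LPS acted differently in the 2 genotypes was tested by the interaction over 12 libraries. Of the 10 genes, 0 were called without and with the block, as were 0.0% of all 13752 genes in both fits, and 0 of the 10 genes reached an unadjusted p under 0.05 in edgeR or in DESeq2, which called 0 of the 10 and 1 other gene. The interaction log2 values were at most 0.70 in size without the block. In replicates 1 and 2 alone, 0 of 10 were called too, but Egr1, Egr2 and Jund reached an unadjusted p under 0.05, at 1.27, 1.63 and 1.0 (edgeR adjusted p = 0.674, 0.674 and 0.690), and the signs of Egr1 and Egr2 were opposite to those over all 3 replicates (-0.32 and -0.70). Of all 13789 genes tested in that setting, 617 were positive and 370 negative at an unadjusted p under 0.05. The standard errors ranged from 0.41 for Ier2 to 1.91 for Egr2, so a difference in LPS response between the genotypes was not detectable here, which does not show that the responses were alike.

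The order of the genes by level was compared per kilobase of exon. In untreated CD18fl/fl BMDCs, Junb led with 299 ± 91.5 CPM per kilobase (SD, n = 3) and did not overlap with Fos (91.8 ± 43.7), which was followed without separation by Ier3, Jund, Atf3 and Ier2. Egr1, Jun and Egr2 formed the next tier between 28.2 and 16.7 CPM per kilobase, and Fosb was lowest with 4.97 ± 1.35. After LPS, Atf3 stood beside Junb (419 ± 231 and 431 ± 143 CPM per kilobase), and in cKO BMDCs it was first (474 ± 172 against 299 ± 56.4), although both overlapped. The place of Junb is uncertain in every group, as reads of the overlapping gene Prdx2 may be counted for it. Fos ranked 2 in untreated and 6 in LPS-treated CD18fl/fl BMDCs, and 6 in untreated and 7 in LPS-treated cKO BMDCs. In the last group, it had 6.54 ± 2.05 CPM per kilobase.

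Across the 12 libraries, which share treatment, genotype and replicate, Fos followed Ier2 (Pearson r of log2 CPM 0.91) and Egr1 followed Fosb (0.92) and Egr2 (0.90), while Atf3 ran opposite to Egr1 (-0.93). Among 13752 genes, the genes most like Fos were Csf1r (0.977), the receptor for macrophage colony-stimulating factor, Vsir (0.975) and Itgb5 (0.973). Those most like Egr1 were Epn1 (0.990), Rps6ka3 (0.984) and Uggt1 (0.983), and those most like Atf3 were Cdkn1b (0.986), Gucd1 (0.984) and Marco (0.983).

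The share of reads within introns differed between the libraries numbered 3 and the others at some of these genes. In untreated CD18fl/fl BMDCs, 65 of 7043 Fos reads (0.923%, 95% Wilson interval 0.725 to 1.17), 104 of 11354 (0.916%, 0.757 to 1.11) and 308 of 3758 (8.20%, 7.36 to 9.12) lay in introns in replicates 1 to 3. For Egr1, the counts were 6 of 3202 (0.187%, 0.0859 to 0.408), 18 of 5000 (0.360%, 0.228 to 0.568) and 226 of 6193 (3.65%, 3.21 to 4.15). The intervals of replicate 3 did not overlap those of the others for either gene. For Fosb, the shares were 15.7% (12.7 to 19.1), 13.6% (11.3 to 16.3) and 40.8% (37.6 to 44.0), and for Atf3 2.75% (2.42 to 3.12), 3.46% (3.09 to 3.88) and 10.6% (9.55 to 11.7). Over all genes, in contrast, the intron share of these 3 libraries was 1.26%, 1.24% and 1.42%, and over all 12 libraries it ranged from 0.965% to 2.62%, the highest in CD18fl/fl LPS replicate 3. Thus, replicate 3 of untreated CD18fl/fl BMDCs had a higher intron share than replicates 1 and 2 at Fos, Fosb, Atf3 and Egr1, while its share over all genes differed little from theirs. Ier3 did not show this in the untreated CD18fl/fl libraries (1.14%, 0.657% and 1.22%). In the LPS-treated CD18fl/fl libraries, its shares were 0.504% (0.274 to 0.924), 0.678% (0.411 to 1.11) and 2.35% (2.0 to 2.76), with replicate 3 apart. In LPS-treated cKO BMDCs, the Fosb share was highest in replicate 1 (72.7%, 8 of 11 reads, against 43.4% in replicate 3), and the Fos intervals of replicates 2 and 3 overlapped (2.37 to 6.13 and 5.40 to 11.1). The part of this difference in the results of replicate 3 was not tested, and the intervals cover counting error only, as PCR copies were not marked.

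**Figure D4:**
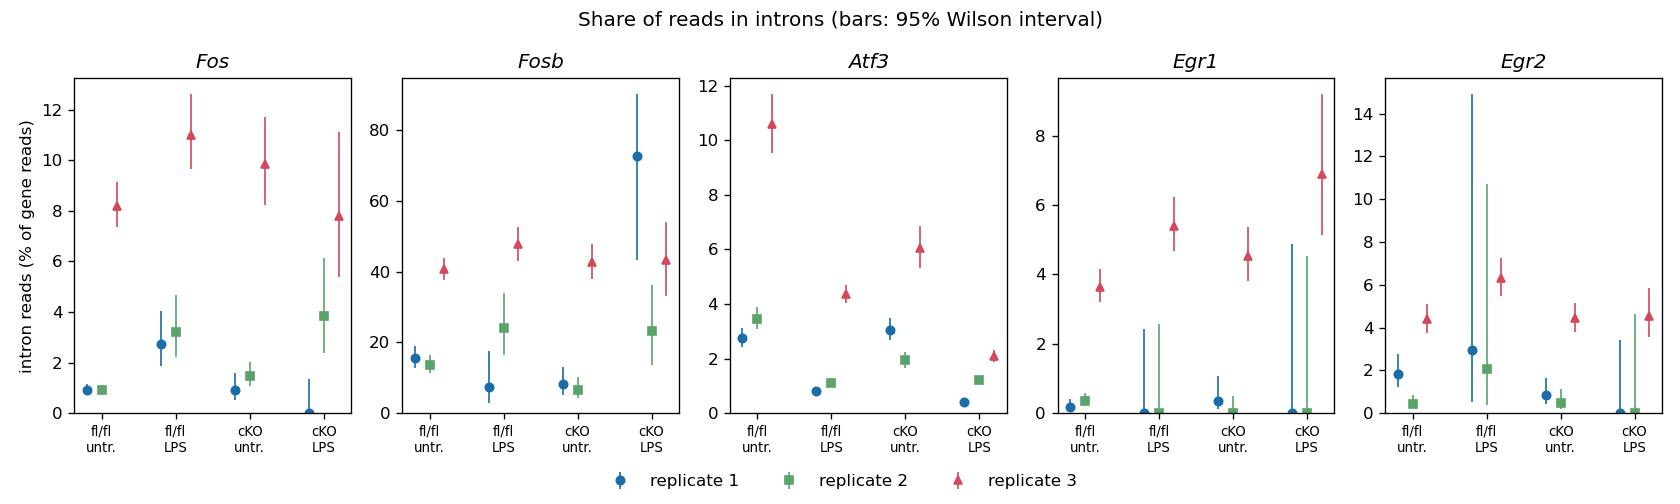
Intron reads as a percentage of all reads of a gene in the 12 libraries for Fos, Fosb, Atf3, Egr1 and Egr2, with 95% Wilson intervals as bars and the replicate number as colour and shape. The replicate 3 libraries reach 8.20% for Fos in untreated CD18fl/fl BMDCs, where the other 2 are at 0.923% and 0.916%, and the widest intervals belong to libraries with few reads of the gene.

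Related genes did not move as one group with LPS. Their counts are to be read beside the shares of all genes called, which were 2.06% higher and 1.83% lower in CD18fl/fl and 2.23% and 1.76% in cKO BMDCs without block, and 6.33% and 6.43%, and 10.2% and 9.93%, with it. Of the 11 other AP-1 family bZIP genes, 10 were tested for LPS in each genotype. In CD18fl/fl BMDCs, 1 was called higher and 0 lower without block (2 and 0 with it), and in cKO BMDCs 0 without and 5 higher with it. The median log2 fold change was 0.71 in CD18fl/fl and 0.72 in cKO BMDCs, unlike the negative median of the 10 genes above. Batf, a partner of Jun proteins that lacks a transactivation domain, had 12.9, 14 and 16.7 CPM untreated and 49.2, 78.0 and 50.7 CPM after LPS in CD18fl/fl BMDCs (log2 fold change 2.03, standard error 0.27, edgeR adjusted p = 0.0162). In cKO BMDCs, Batf3, which is needed for cross-presenting dendritic cells, Batf and Maff passed with the block (1.44, 1.81 and 0.72, adjusted p = 0.00340, 0.00771 and 0.0290).

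Of the 23 other immediate early genes, 20 were tested for LPS. Without block, 3 were called higher (Nr4a2, Nr4a3 and Plk2) and 1 lower (Klf4) in CD18fl/fl BMDCs, and Nr4a2, Nr4a3 and Klf4 were called in the same directions in cKO BMDCs. With the block, 5 were higher and 4 lower in CD18fl/fl, and 5 and 5 in cKO BMDCs. Nr4a3 had log2 fold changes of 1.99 and 1.65 (edgeR adjusted p = 0.0221 and 0.0303) and Plk2 one of 1.52 in CD18fl/fl BMDCs (adjusted p = 0.0442). The orphan nuclear receptor gene Nr4a2 had 3.69, 4.09 and 5.91 CPM untreated and 21.3, 17.3 and 19.2 CPM after LPS in CD18fl/fl BMDCs (log2 fold change 2.08, standard error 0.29, edgeR adjusted p = 0.0178). Klf4, a zinc finger factor of the monocyte lineage, had 14.2, 13.9 and 18.6 CPM untreated and 2.83, 3.12 and 2.54 CPM after LPS (-2.45, standard error 0.28, adjusted p = 0.0144).

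Of the 23 upstream kinases and serum response factors, all were tested. In the comparison of LPS with untreated BMDCs, Mapk14, which encodes p38α, was called lower without block in CD18fl/fl (84.8, 83.6 and 76.4 against 26.3, 28.0 and 35.0 CPM, log2 fold change -1.45, standard error 0.22, edgeR adjusted p = 0.0239) and in cKO BMDCs (-1.34, adjusted p = 0.0418). Map2k6, which encodes an activator of p38, was called lower in cKO BMDCs (-2.70, adjusted p = 0.0450), and 0 of the list were called higher in either genotype. With the block, 1 was higher and 1 lower in CD18fl/fl, and 5 higher and 4 lower in cKO BMDCs. The gene called higher in CD18fl/fl was Map3k8, a kinase gene of the LPS response (1.77, edgeR adjusted p = 0.0474), and those called higher in cKO included Creb1 and Mrtfa (0.69 and 0.70, adjusted p = 0.0337 and 0.0343).

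Between the genotypes, 0 genes of these 3 lists were called without block, at either state. With the block, where 8.16% of all genes were lower and 12.1% higher, untreated cKO BMDCs had 6 other immediate early genes lower and 0 higher out of 20 tested, led by Arc (-0.77), Btg2 (-0.75) and Klf10 (-0.71, edgeR adjusted p = 0.0165, 0.0177 and 0.0221). The kinase list had 3 lower (Mapk9, Map2k1 and Mrtfa at -0.74, -0.62 and -0.65, adjusted p = 0.0210, 0.0237 and 0.0403) and 0 higher out of 23. The bZIP list was mixed, with Batf and Batf3 higher (0.78 and 0.72, adjusted p = 0.0159 and 0.0215) and 3 genes lower out of 10, led by Fosl2 (-0.98, adjusted p = 0.0162) and followed by Mafg and Atf7 (-0.65 and -1.03, adjusted p = 0.0300 and 0.0497). After LPS, where 3.16% of all genes were lower and 6.98% higher with the block, it gave 3 of 19 immediate early genes lower, namely Btg2, Klf10 and Rhob (-0.81, -0.86 and -0.65, adjusted p = 0.0211, 0.0438 and 0.0455). It gave 5 of 23 in the kinase list lower, led by Mapk3, which encodes ERK1 (-0.74, adjusted p = 0.0207), and Rps6ka5 and the Egr corepressor gene Nab2 (-0.78 and -0.95, adjusted p = 0.0263 and 0.0301). Among bZIP genes, it gave Batf3 higher and Mafg lower out of 11 (0.94 and -0.79, adjusted p = 0.0263 and 0.0348).

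Markers of other cells and of handling also differed between some of the groups. Summed over 9 genes, macrophage markers ranged from 1917 to 2255 CPM in untreated and from 1164 to 1372 CPM in LPS-treated CD18fl/fl libraries, and from 1822 to 2377 against 549 to 936 CPM in cKO libraries, where with the block 5 of 9 were called lower with LPS and 0 higher (4 and 0 in CD18fl/fl). Between untreated genotypes, 3 of the 9 were called higher in cKO with the block (C1qa, C1qb and Fcgr1 at 0.73, 0.77 and 0.67, edgeR adjusted p = 0.0296, 0.0137 and 0.0433) and 3 lower (Csf1r, Cd68 and Adgre1 at -0.88, -0.87 and -0.70, adjusted p = 0.0121, 0.0182 and 0.04). Csf1r, the gene most like Fos, was at 419, 561 and 188 CPM in untreated CD18fl/fl and at 196, 254 and 126 CPM in untreated cKO libraries. It was picked for its likeness to Fos over these same libraries, so its course beside Fos is no separate evidence. The 13 heat shock and handling stress genes summed to 5173 to 6369 CPM in untreated CD18fl/fl and 5490 to 9000 CPM in untreated cKO libraries, where 12 were tested and with the block 1 was called higher and 1 lower. Between untreated and LPS-treated libraries, 2 of 13 and 2 of 12 tested were higher without block in CD18fl/fl and cKO BMDCs, with sums after LPS of 4922 to 8820 and 6337 to 10361 CPM. The 11 dendritic cell markers summed to 16483 to 26092, 17430 to 48271, 21818 to 39019 and 24360 to 32880 CPM in the order of the groups given above, and none of them was at 0 in a whole group.
Neutrophil markers summed to 8.90 to 1320 CPM in untreated CD18fl/fl libraries and to 10.9 to 194 CPM in untreated cKO libraries, the highest in CD18fl/fl replicate 1, and to at most 68.9 CPM after LPS. Elane, Mpo and Cxcr2 were at 0 reads in all LPS-treated cKO libraries. Mast cell and basophil markers summed to 14.3 to 165 CPM and lymphocyte markers to 1.30 to 103 CPM over all libraries. In the untreated CD18fl/fl and cKO libraries, the neutrophil sums were 1320 and 194 CPM in replicate 1, 112 and 157 CPM in replicate 2 and 8.90 and 10.9 CPM in replicate 3, where Fos differed by -1.96, -1.73 and -1.61. The part of macrophage and neutrophil markers and of handling in the results was not tested.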

How the data were processed

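RNA-seq libraries were prepared from poly(A) RNA of isolated MHCII-positive BMDCs and read single-end. The authors mapped the reads in CLC Genomics Workbench with default settings and deposited raw counts per gene, of which total gene reads were used here (95.1% to 96.2% of them unique). The paper names GRCm39, which the deposited positions match, whereas the submitters' notes name GRCm38. Whether reads were counted by strand is not given in the sources used here. The column of total gene reads was tested with the edgeR (4.0.16, R 4.3.3) quasi-likelihood test after TMM scaling and a minimum count of 10 (filterByExpr), on the 6 libraries of the 2 groups compared, or on 12 for the interaction, p-values being adjusted after Benjamini and Hochberg across the genes tested, with a threshold of 0.05. Standard errors were derived from the F statistic. DESeq2 (1.42.0), other scalings, no filter, unique reads, a length offset, the replicate block and leaving out libraries were alternatives, those with the block and a library left out being added after seeing the data. Same-numbered libraries deviated together (r between 0.265 and 0.716 across genes for every pair), and the replicate number was taken to pair them. No r was computed between libraries of different number. With replicate 3 apart in every group, the r of same-numbered libraries cannot show that those numbered 1 and 2 pair by number. No library duplicated another. The scripts were tested on simulated data. The 10 genes and the gene lists were chosen with earlier results of these data known. Named genes of the lists are the 3 or fewer past the threshold that had the lowest adjusted p in each direction of a comparison (with the block where none passed without it), except for 1 gene that is not reported here, and for Fos, Egr1 and Atf3 the 3 genes with the highest correlation of log2 CPM (prior count 2). Depths of 29689149 to 34037178 reads bound counting error only.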

Additional observations from a re-analysis of the deposited data

How the results depend on the processing

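Counts of the 10 genes called changed with the replicate block and with single libraries of every replicate number, and the cause was not tested. For LPS in CD18fl/fl BMDCs, 0 genes were called higher, but 1 without the filter, with DESeq2, with all 12 libraries in the fit, with the replicate block and with the block and a length offset, and 2 in replicates 1 and 2 alone. There, 2 were called lower, but 4 with the block, with or without the offset, and 7 in replicates 1 and 2 alone. Replicates 1 and 2 alone called 3000 of all 12924 genes tested higher and 3140 lower. The block with the offset called 901 of all 12744 genes tested higher and 849 lower. The log2 fold change of Ier3 became 0.0 with RLE size factors and DESeq2. For LPS in cKO BMDCs, 1 was higher, but 2 with the block, with or without the offset. There, 1 was lower, but 2 with library size scaling, without the filter and with all 12 libraries, 4 with DESeq2 and in replicates 1 and 2 alone, and 5 with the block, with or without the offset. Of all 12687 genes tested, library size scaling called 186 higher and 300 lower, and the block with the offset 1353 higher and 1220 lower. Between untreated genotypes, 0 were lower, but 2 with DESeq2, 7 with the block, 8 with the block and offset and 3 in replicates 1 and 2 alone. Of all 12876 genes tested there, the block with the offset called 599 lower and 976 higher. There, Atf3 turned to -0.02 with library size scaling, and Egr2 to -0.28 with that scaling, -0.02 with the block and -0.18 in replicates 1 and 2 alone. Between LPS-treated genotypes, 0 were lower, but 2 with the block and 3 with the block and offset. Of all 12441 genes tested there, the block with the offset called 270 lower and 631 higher. There, Atf3 turned to -0.07 with library size scaling, Jund to 0.08 in replicates 1 and 2 alone, and Egr2 to 0.49 with the block, 0.59 with the block and offset and 1.41 in replicates 1 and 2 alone.

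With 1 library left out and no block, LPS in CD18fl/fl BMDCs gave 0 to 1 genes higher and 0 to 7 lower, with Ier3 at -0.48 to 0.22, and LPS in cKO BMDCs gave 0 to 1 higher and 0 to 2 lower, with Jund at -0.68 to 0.16 and Ier3 at -0.32 to 0.15. Between untreated genotypes, Egr2 lay at -0.67 to 0.57. Between LPS-treated genotypes, Jund lay at -0.52 to 0.38, Atf3 at -0.27 to 0.49, Egr1 at -3.27 to 0.75 and Egr2 at -2.81 to 3.50. With the block and 1 library left out, the counts were 1 to 2 higher and 2 to 7 lower for LPS in CD18fl/fl, 1 to 2 higher and 3 to 6 lower for LPS in cKO, 2 to 7 lower between untreated genotypes, and 0 to 1 higher and 0 to 3 lower between LPS-treated genotypes. Where leaving out a library left 2 pairs, the library without a partner did not inform the blocked fold change. Shares of all genes called are not given for pairwise fits without the filter, with all 12 libraries or with a library left out. The counts from these fits describe stability only. The interaction gave 0 of the 10 genes under every alternative run. For Fosb and for Egr1 and Egr2 after LPS, low counts limit the precision, and 3 libraries per group with 1 replicate number apart limit every comparison.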
